A study of Gallus gallus with 58 samples.

Results

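The question taken up here was whether the blood of female and of male chicks differed in its response to CpG-ODN 6 days after the injection. The 22 arrays of that day (D6), of 58 in the series, were used. They came from 10 chicks given CpG-ODN 2007, a short synthetic DNA, and 12 control chicks (CTL). The chicks were injected when they hatched, and each array holds the whole blood RNA of a different chick. The labels do not name the substance given to controls or the breed. Sex is not labelled either, so each chick was assigned a sex from its own array. A chick was called female where the HINTW probe set with the highest mean stood above 10 on the log2 scale, and male otherwise. This gave 5 female CpG, 6 female control, 5 male CpG and 6 male control chicks. The quantity compared was the CpG effect in females minus the CpG effect in males, over 20789 probe sets, with the 15 probe sets of HINTW left out.

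CpG-ODN 2007 is read as bacterial DNA by TLR21, the chicken counterpart of mammalian TLR9, which signals from endosomes to NF-kB and interferon genes. Female birds carry a Z and a W chromosome and males carry a pair of Z chromosomes, and birds balance the Z dose gene by gene rather than by silencing a whole chromosome. HINTW is a multicopy gene of the W chromosome that is widely expressed in female tissues. Bird red cells and thrombocytes keep their nuclei, so whole blood RNA comes from red cells, thrombocytes, heterophils (the avian counterpart of neutrophils), monocytes and lymphocytes. In such RNA, more cells of a type and more RNA per cell cannot be told apart.

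HINTW stood between 10.8 and 12.1 in the 11 females (median 11.97) and between 5.77 and 8.54 in the 11 males (median 6.31). The values nearest to the cut were 10.8 in chick 31, a CpG female, against 8.54 in chick 100, a control male, and 7.96 in chick 28, a CpG male. The HINTW probe set with the highest mean carries a second symbol, LOC100857579, and the 1 probe set that carries HINTW alone gave the same sex in all 22 chicks. The mean of 17 other W-linked probe sets did so as well, with 6.95 to 7.57 in females and 4.98 to 5.69 in males. The ends nearest to the other sex were again chick 31 (6.95) and chick 100 (5.69). Of the 17 probe sets, 11 were higher in every female than in every male. Z-linked genes averaged 6.66 to 6.72 in females and 6.89 to 7.00 in males, and 80.9% of 498 Z-linked genes were lower in females, against 48.7% of 10519 autosomal genes. These values chose or checked the sexes and are given as a description.

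**Figure D1:**
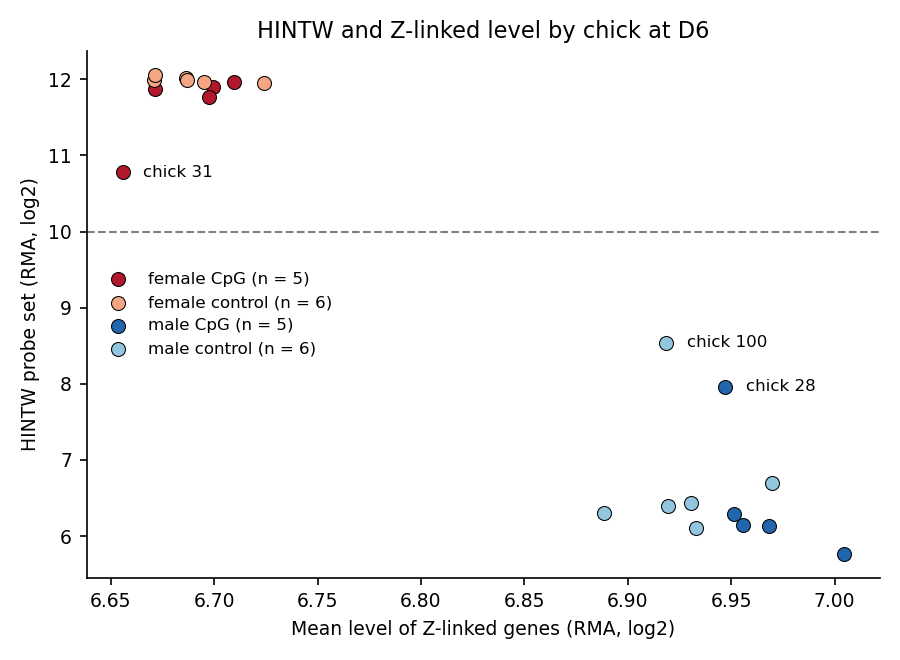
HINTW level (vertical axis, log2) against the mean level of Z-linked genes (horizontal axis, log2) for the 22 chicks, 1 point a chick, coloured by sex and treatment. The dashed line is the cut at 10, with 11 chicks above it and 11 below it, and chicks 31, 100 and 28 lie nearest to it.

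One array stood apart. The median correlation of chick 31, a CpG female, with the other D6 arrays was 0.941, where 0.967 was the lower limit for an array to count with the rest, and the highest value was 0.975. Its erythroid score (the mean z-score of red cell genes) was -0.86, where the other 4 CpG females had 0.29 to 0.46. The red cell genes averaged 10.9 to 11.5 in CpG females, 11.4 to 11.6 in CpG males, 11.3 to 11.5 in female controls and 11.3 to 11.5 in male controls on the log2 scale, high in every group. Values without chick 31 are given beside some of the calls and medians that it moved.

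No probe set passed the test of the sex difference. Limma called 0 of 20789 at an adjusted p under 0.05 (0%), and the smallest adjusted p was 0.0609. An unadjusted p under 0.05 was found for 2255 probe sets (10.8%), where 1039.45 are expected on average if no probe set differs. Probe sets are not independent, so that a single count can lie far from this average. Of the 2255, 918 (4.42%) had a positive difference and 1337 (6.43%) a negative one. The sign does not say in which sex the effect was stronger, since a fall in females alone also gives a negative difference. The difference has a median SE of 0.20 on the log2 scale, against 0.14 for the effect within 1 sex, so that small differences could not be detected with these numbers of chicks. Leaving out 1 chick at a time gave 0 calls in 20 of 22 fits, 1 call without chick 25 and 3 calls without chick 107, all of probe sets with no gene symbol. The probe set called without chick 25 was also among those called without chick 107. The other calls without chick 107 had the same difference and SE as each other (-1.35 ± 0.22). With 1 probe set per gene the test called 2 genes, FBXL21 and LOC768380.

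The gene with the smallest p of the sex difference was LOC768380, a protein-coding gene on chromosome 6 with no other name in the gene table. It stood at 3.72, 3.87, 4.98, 4.22 and 4.30 in CpG females, against 2.84 to 3.91 (median 3.21) in female controls. In CpG males it stood at 2.36, 2.42, 3.06, 3.19 and 3.54, against 3.55 to 4.46 (median 3.76) in male controls. The 5 CpG males all lay below the male controls, whereas 3 of 5 CpG females lay above all female controls. The difference was 1.87 ± 0.33 (log2, SE, 95% interval 1.18 to 2.57, adjusted p = 0.0609), made up of 0.95 in females (adjusted p = 0.0445) and -0.93 in males (adjusted p = 0.124). The call in females was lost in 13 of 22 fits that left out 1 chick, and without chick 31 the effect in females was 0.76 (adjusted p = 0.107). Its levels were low (40% of all probe sets have a mean under 6.26), and whether the array detected it is not known.

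FBXL21, on chromosome 13, encodes an F-box protein that in mice directs clock proteins to ubiquitination. It stood at 6.21, 5.92, 6.41, 6.56 and 5.99 in CpG females, against 6.70 to 7.43 (median 7.12) in female controls, so that the groups did not overlap. The CpG males had 6.94, 6.91, 7.02, 7.42 and 6.94, against 6.53 to 6.96 (median 6.80) in male controls, with 2 of 5 above every control. It fell by 0.83 in females (adjusted p = 0.00795) and was 0.26 higher in CpG males (adjusted p = 0.438). The difference was -1.09 ± 0.20 (95% interval -1.5 to -0.68, adjusted p = 0.0609), and it ranged from -1.18 to -0.996 when 1 chick was left out.

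Among the genes with a positive difference, PECAM1 encodes an adhesion molecule of endothelial cells, platelets and leukocytes in mammals. It stood at 8.46, 8.15, 9.40, 8.66 and 8.22 in CpG females, against 6.76 to 7.80 (median 7.53) in female controls. CpG males had 7.57, 7.98, 7.17, 8.04 and 7.87, against 7.54 to 7.89 (median 7.76) in male controls. The groups were apart in females and overlapped in males. The highest level in CpG females, 9.40, was that of chick 31. PECAM1 rose by 1.19 in females (adjusted p = 0.00853), the effect in males was -0.0035, and the difference of 1.19 ± 0.29 did not pass the test (adjusted p = 0.328). MKNK1, a kinase that phosphorylates the translation factor eIF4E, had 0.49 in females (adjusted p = 0.0158) and -0.19 in males, a difference of 0.68 ± 0.14 (adjusted p = 0.212). The means of its control levels were 6.60 ± 0.16 in females and 7.01 ± 0.16 in males (SD, n = 6 each), a gap that was not tested. The call of MKNK1 in females was lost without chick 26 (adjusted p = 0.0505).

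The other genes on this side were MIR7-3 (a difference of 1.07), SPIA9 (0.79), HTR2C (0.62), KCND3 (0.62), KRABZFP (0.60), GRXCR1 (0.56) and LOC424919 (0.52). HTR2C encodes a serotonin receptor, KCND3 a potassium channel and GRXCR1 a protein of inner ear hair cells. None of these 7 was called in either sex or in the difference. Each had a positive effect in females and a negative one in males. They were chosen by the p of the difference, and opposed effects are favoured by that choice. Some of their levels were low, with SPIA9 at 3.22 to 3.48 in female controls. In male controls MIR7-3 stood at 5.59 to 6.29 and GRXCR1 at 5.59 to 5.92 (40% of all probe sets have a mean under 6.26). Whether the array detected these 3 is not known.

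On the other side, 9 more genes had a negative difference. Of the 9, 7 were called lower in females, where 0.625% of all probe sets were. The effects of these 7 were larger in size in females than in males. All 9 were chosen by the p of the difference, so opposed or unequal effects in females and males are built into the choice. USP1, which removes ubiquitin from proteins of DNA repair, stood at 7.05, 6.68, 6.76, 7.28 and 6.97 in CpG females, against 7.41 to 7.86 (median 7.62) in female controls. Its levels in CpG males were 7.23, 7.42, 7.32, 7.82 and 7.62, against 7.10 to 7.45 (median 7.33) in male controls. USP1 fell by 0.68 in females (adjusted p = 0.00853), with an effect of 0.16 in males and a difference of -0.84 ± 0.17 (adjusted p = 0.212). SIN3B, a scaffold of histone deacetylase corepressors, stood at 6.81 to 7.28 in CpG females and 7.54 to 8.10 in female controls. In males the SIN3B groups overlapped, with 7.17 to 7.91 in CpG chicks and 7.35 to 7.92 in controls. It fell by 0.84 in females, with an effect of 0.01 in males and a difference of -0.85 ± 0.19 (adjusted p = 0.289).

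VKORC1L1, a relative of vitamin K epoxide reductase, fell by 0.57 in females, and TUBD1, which encodes delta-tubulin, by 0.70. ATG4C, a protease of autophagy, fell by 0.56 in females, IPO9, a nuclear import receptor, by 0.47 and BRAT1, a protein of the DNA damage response, by 0.72. The effects of these 5 in males were between 0.11 and 0.22, none called. The call of IPO9 was lost without chick 26, 97 or 101 (adjusted p up to 0.0659). CDK7, a Z-linked gene for a kinase of the cell cycle and of transcription, had -0.28 in females and 0.30 in males, neither called. The 5 CpG females all lay below the female controls for CDK7, and 4 of 5 CpG males lay above all male controls. MIR1647 had -0.24 in females and 0.44 in males, neither called.

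**Figure D2:**
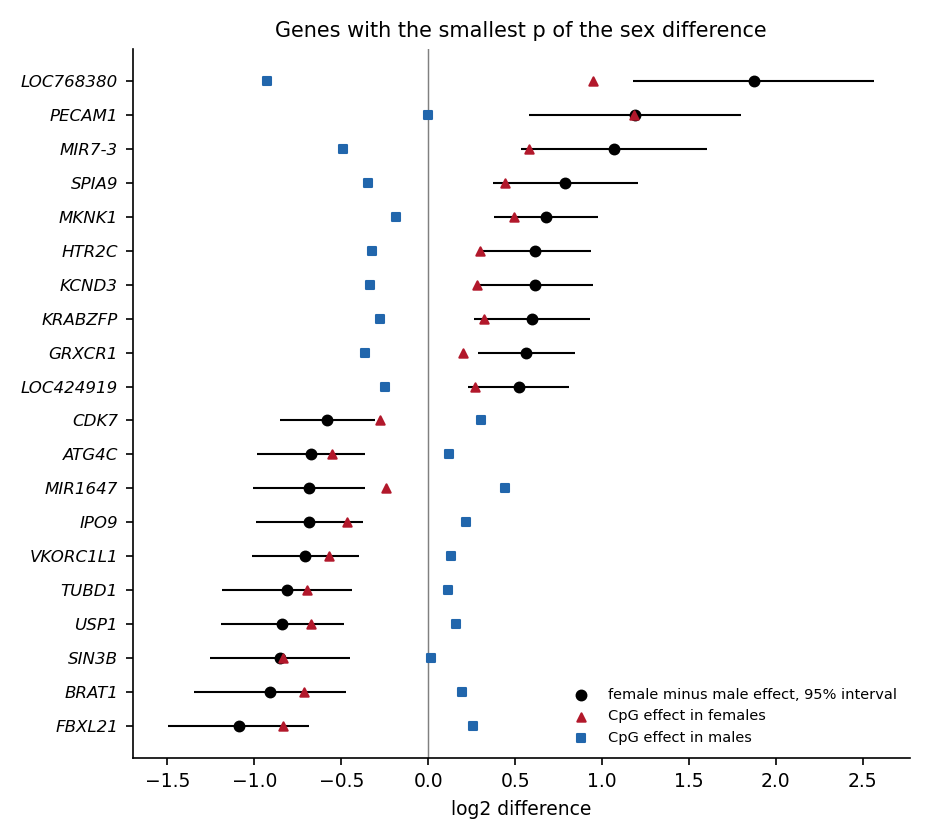
The 20 genes with the smallest p of the sex difference, 10 in each direction, with the difference of the CpG effects (black point, female minus male) and its 95% interval (line), and the CpG effect in females (red triangle) and in males (blue square), all on the log2 scale. The genes were chosen by the p of this same difference, so intervals that do not cross 0 are built into the choice. No gene passed the test over all probe sets.

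Over both sexes together, limma called 614 of 20789 probe sets (2.95%), 457 higher (2.2%) and 157 lower after CpG. Within females it called 350 of 20789 probe sets (1.68%), 220 higher (1.06%) and 130 lower (0.625%) after CpG. Within males it called 11 (0.0529%), all higher. The numbers of chicks were the same in both sexes. The SE was the same by construction, as 1 estimate of spread served all groups, so it does not compare the spread of the sexes. An unadjusted p under 0.05 was found for 3155 probe sets in females (15.2%) and 2699 in males (13%), a far smaller gap than after adjustment. The median size of the effect over all probe sets was 0.13 in females and 0.14 in males. All 5 CpG chicks lay above all 6 controls for 1.29% of probe sets in females and 1.6% in males, and below all of them for 1.44% in females and 0.919% in males.

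Both counts moved with single chicks. In females the count was 144 without control chick 97, 183 without chick 26, 204 without chick 106 and 220 without chick 101, and 433 without chick 35. In males it was 0 in 11 of 22 fits (without CpG chick 27 or 28, or without control chick 97, 98, 100, 103, 105, 106, 107, 108 or 109) and 2 without chick 32 or 35. It was 16 without chick 99, 19 without chick 25 or 102, 20 without chick 29, 22 without chick 33, 24 without chick 26 and 73 without chick 31. Since 1 estimate of spread served all 4 groups, leaving out a female also moved the count in males.

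The calls in females were set beside the effects in males, separately for each direction. Of the 220 probe sets called higher in females, 210 (95.5%) were also higher in CpG males, with a median effect of 0.73 in females and 0.42 in males. Of the 130 called lower in females, 66 (50.8%) were lower in CpG males, with a median of -0.59 in females and -0.01 in males. Over all probe sets, 47.1% were higher in CpG males, so that the share of 50.8% is near that of all probe sets. An unadjusted p under 0.05 in the same direction was found in males for 139 of the 220 and for 4 of the 130. Of all 20789 probe sets, 2699 (13%) had such a p in males in either direction, 1337 of them higher. Because these probe sets were chosen by their effect in females, a smaller effect in males is built into the comparison, and the rows include some that share all their values. The share of 50.8% ranged from 37.0% to 62.7% when 1 chick was left out, and the share of 95.5% became 96.2% to 99.5%.

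The reverse choice was made for comparison after these values were seen. The 220 probe sets with the smallest p among those higher in CpG males had a median of 0.55 in males and 0.31 in females. Of these, 84.1% were higher in females too, where 49.5% of all probe sets were. The 130 with the smallest p among those lower in CpG males had -0.46 in males and -0.13 in females, with 76.2% lower in females too. Only 11 of these 220 and 0 of these 130 were called in males, whereas all those chosen in females were called there. With 1 chick left out, the share of 84.1% ranged from 71.5% to 92.3% and that of 76.2% from 62.6% to 87.6%. The shares of this choice and of the choice in females were not compared by a test. The effects in females and in males had a Pearson correlation of 0.234 and a Spearman correlation of 0.0913 over all 20789 probe sets, and a Pearson correlation of 0.343 over 11527 genes. Probe sets and genes are not independent, and they share the array type and the normalization.

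**Figure D3:**
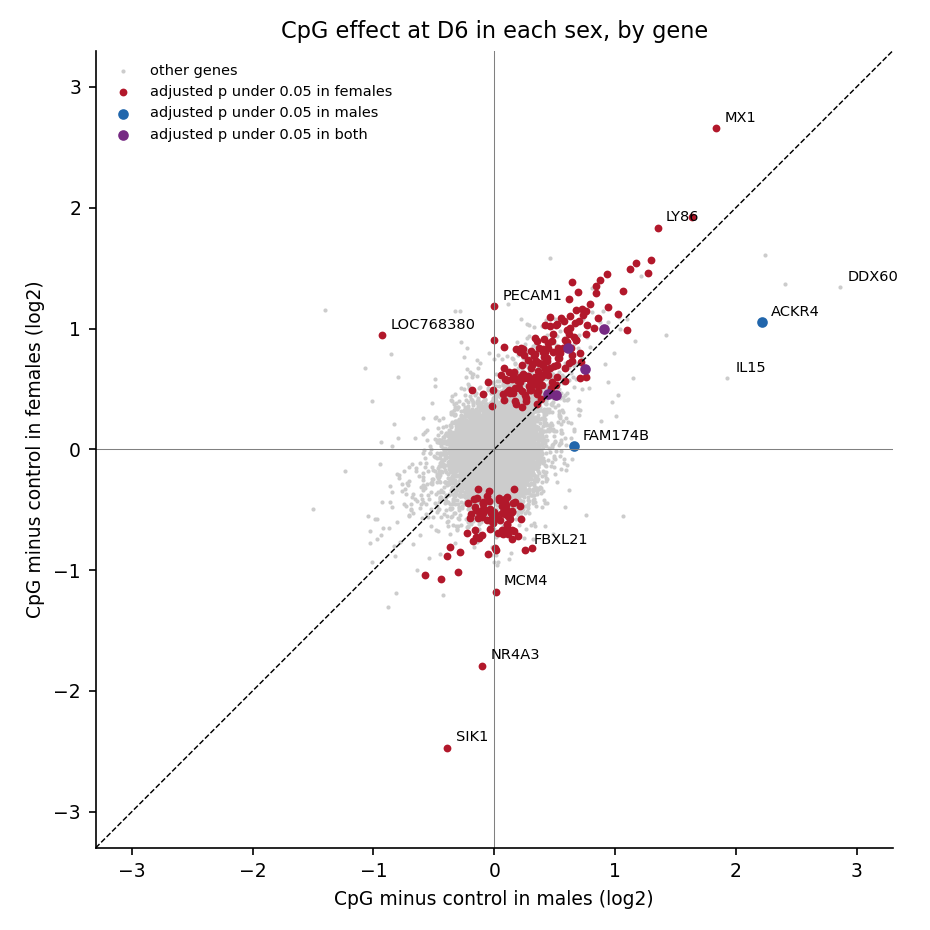
CpG effect in females (vertical axis, log2) against CpG effect in males (horizontal axis, log2), 1 point a gene, with the line of equal effects dashed. Genes called higher in females lie mostly to the right of 0 in males, while those called lower in females lie on both sides of 0 in males.

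Of the genes that rose in females, the largest rise was that of MX1, an antiviral GTPase induced by interferon. It stood at 9.49, 10.52, 10.11, 9.19 and 10.11 in CpG females, against 6.04 to 9.93 (median 6.77) in female controls. CpG males had 9.83, 10.92, 10.82, 9.34 and 10.37, against 7.20 to 9.82 (median 8.51) in male controls. One female control (chick 99) reached the CpG levels, and the controls of both sexes spread widely. The effect was 2.66 ± 0.57 in females (adjusted p = 0.0191) and 1.84 ± 0.57 in males (adjusted p = 0.207), a difference of 0.82 ± 0.81 (95% interval -0.85 to 2.49) that ranged from 0.54 without chick 102 to 1.36 without chick 99 and was -0.67 with 6 cell type scores as covariates. The call in females was lost without chick 97 (adjusted p = 0.0555).

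Among genes of monocytes and macrophages, LY86, which encodes the partner protein of the receptor CD180, stood at 10.54, 10.15, 8.93, 9.84 and 9.18 in CpG females, against 7.26 to 8.52 (median 7.91) in female controls. CpG males had 9.30, 9.57, 10.15, 9.28 and 8.62, against 7.50 to 8.27 (median 8.14) in male controls. The groups were apart in both sexes. LY86 rose by 1.84 in females (adjusted p = 0.00732), and its effect of 1.35 in males missed the threshold (adjusted p = 0.0641) but passed it without chick 26, 31 or 33. SPI1, the myeloid transcription factor PU.1, had 1.49 in females (adjusted p = 0.00853) and 1.13 in males (adjusted p = 0.0886), again with all 5 CpG chicks above all 6 controls in each sex. SPI1 passed the test in males without chick 33 (adjusted p = 0.0378).

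Other large rises in females had similar point estimates in males that did not pass the test. ANXA2 and ANXA1, calcium-dependent membrane binding proteins, had 1.92 and 1.57 in females and 1.64 and 1.30 in males. FGL2, a fibrinogen-like protein of macrophages and T cells, had 1.54 in females and 1.17 in males, and MGST1, a glutathione transferase of membranes, had 1.46 and 1.27. The adjusted p of these 4 genes in males lay between 0.0666 and 0.0886, but ANXA2 passed the test in males without chick 31 (adjusted p = 0.0313) and FGL2 without chick 31 or 33 (lowest adjusted p = 0.0331). The intervals of their differences all held 0 and reached up to 1.40 for ANXA2, so that equal effects are not shown either. FN1 (fibronectin) had 1.45 in females and 0.93 in males, RSAD2 (the antiviral protein viperin) 1.40 and 0.88, and RBM43, an RNA-binding protein, 1.39 and 0.65. The calls of FN1 and RBM43 in females were lost in 6 and 5 of 22 fits that left out 1 chick.

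Of the genes that fell in females, SIK1, a kinase induced by cyclic AMP that restrains CREB target genes, changed most. It stood at 8.46, 8.76, 9.29, 9.93 and 9.90 in CpG females, against 11.03 to 12.31 (median 11.87) in female controls. The levels in CpG males were 9.37, 10.46, 11.52, 11.30 and 11.53, against 10.36 to 12.09 (median 11.25) in male controls. The groups were apart by over 1 unit in females and overlapped in males, where only chick 25 lay below every control. SIK1 fell by 2.47 in females (adjusted p = 0.00795), the effect in males was -0.39 ± 0.39 (adjusted p = 0.689), and the difference was -2.08 ± 0.55 (95% interval -3.22 to -0.94, adjusted p = 0.370). The difference ranged from -2.45 to -1.88 when 1 chick was left out.

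NR4A3, an orphan nuclear receptor of the immediate early response, stood at 6.62, 6.55, 7.11, 7.10 and 7.25 in CpG females, against 7.78 to 9.31 (median 8.74) in female controls. Levels in CpG males were 6.96, 7.56, 8.64, 8.80 and 8.65, against 7.32 to 8.78 (median 8.37) in male controls. The CpG females all lay below their controls, and among CpG males chick 25 did. NR4A3 fell by 1.79 in females (adjusted p = 0.00894), against -0.10 in males, a difference of -1.69 ± 0.47 (adjusted p = 0.383).

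MCM4, a subunit of the replicative DNA helicase, stood at 7.13, 6.92, 6.84, 7.44 and 7.53 in CpG females, against 7.70 to 8.84 (median 8.44) in female controls. In males it overlapped, with 7.65 to 8.46 in CpG chicks and 7.47 to 8.34 in controls. MCM4 fell by 1.18 in females (adjusted p = 0.00866), with an effect of 0.01 in males and a difference of -1.19 ± 0.31 (adjusted p = 0.343). TPX2, a spindle assembly factor, fell by 1.04 in females and had -0.57 in males. MRPL37, of the mitochondrial ribosome, fell by 1.01 in females, against -0.30 in males. SPSB4 and MASTL, a mitotic kinase, fell by 1.08 and 0.89 in females, ARSA, a lysosomal sulfatase, by 0.86 and LOC395991 by 0.85. The last 4 calls were lost in 8 to 15 of 22 fits that left out 1 chick.

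**Figure D4:**
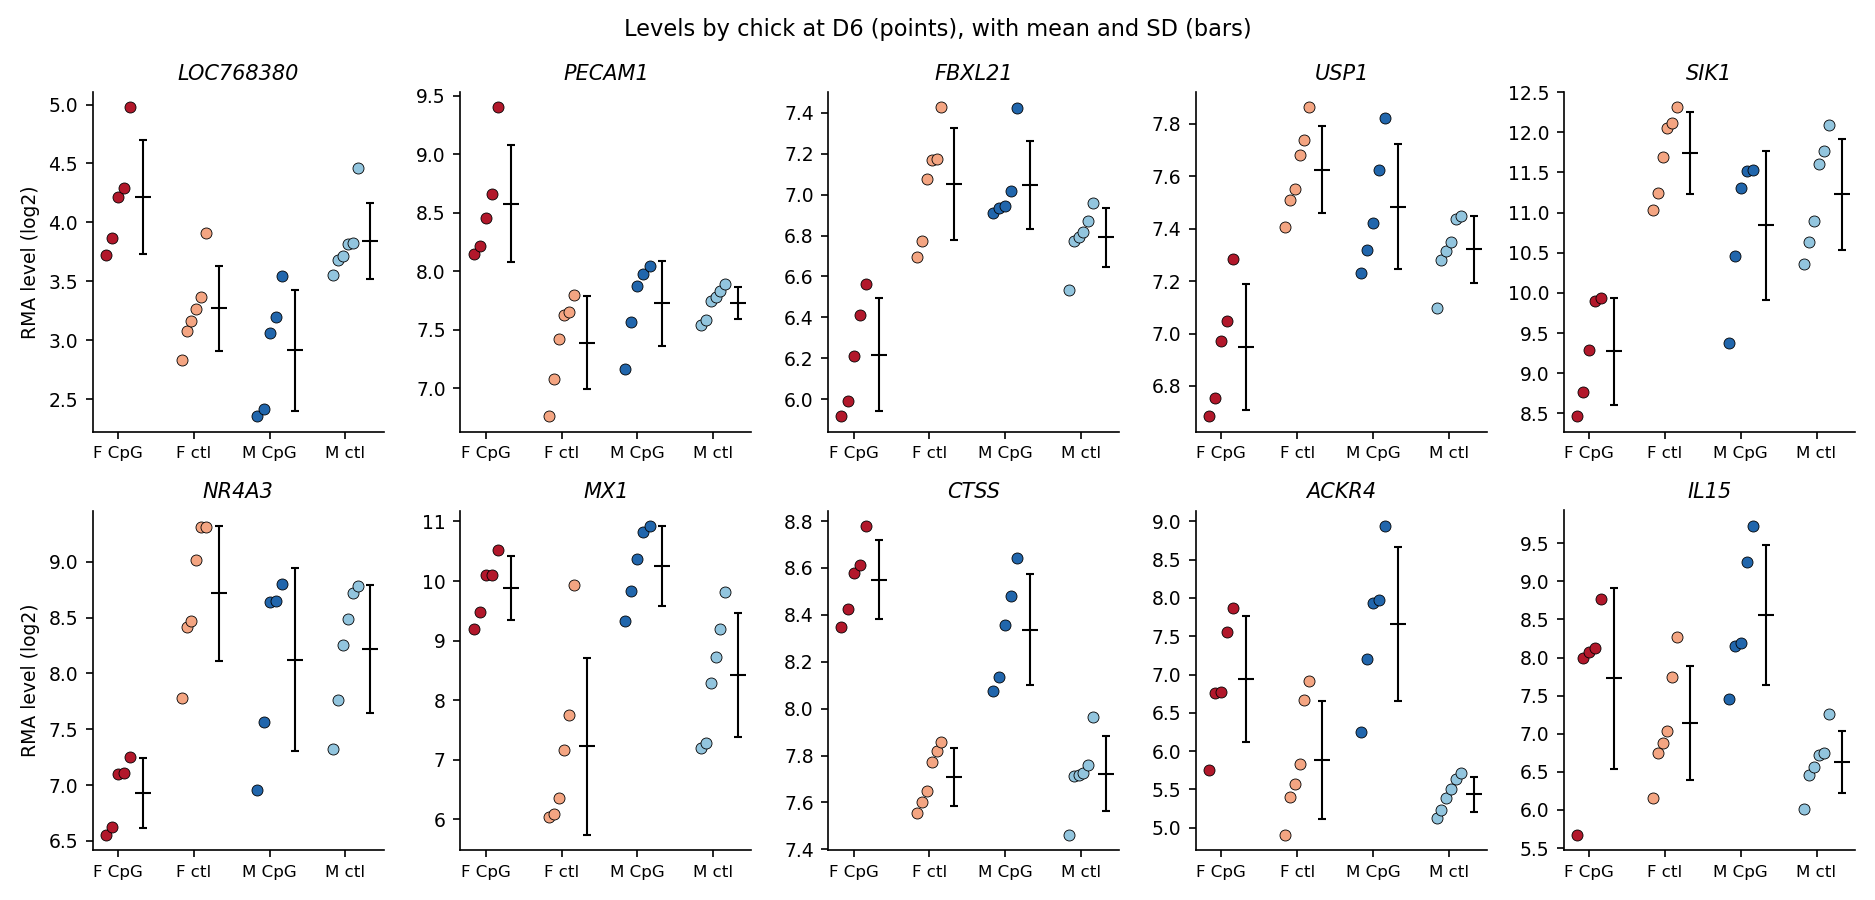
Levels (log2) of 10 genes in the 22 chicks, 1 point a chick, in female CpG (F CpG, n = 5), female control (F ctl, n = 6), male CpG (M CpG, n = 5) and male control (M ctl, n = 6) chicks, with the mean and SD of each group beside the points. SIK1 and NR4A3 are low in all CpG females and in 1 CpG male, CTSS is high in the CpG chicks of both sexes, and IL15 is low in 1 CpG female.

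In males the 11 called probe sets included 7 genes by the probe set that stands for each gene. CTSS encodes cathepsin S, a protease of antigen presenting cells. It stood at 8.36, 8.48, 8.64, 8.13 and 8.07 in CpG males, against 7.46 to 7.96 (median 7.72) in male controls, and at 8.35 to 8.78 in CpG females, against 7.56 to 7.86 in female controls. The groups were apart in both sexes. CTSS rose by 0.61 in males (adjusted p = 0.0437) and by 0.84 in females (adjusted p = 0.00293), a difference of 0.23 ± 0.16 (95% interval -0.10 to 0.55). The call of CTSS in males was lost in 14 of 22 fits that left out 1 chick (adjusted p up to 0.177).

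LCP1, LY75, NRROS and FNDC3A were called in both sexes too. LCP1, which bundles actin in leukocytes, rose by 1.00 in females and 0.91 in males, and LY75, the antigen uptake receptor DEC-205, by 0.67 and 0.75. NRROS, which anchors latent TGF-beta in macrophages, rose by 0.46 in females and 0.44 in males, and FNDC3A, a fibronectin type III protein, by 0.45 and 0.51. The CpG and control chicks did not overlap in either sex for any of these 4. The differences lay between -0.09 and 0.09, with 95% intervals from -0.45 to 0.56. The calls in males were lost in 12 to 15 of 22 fits that left out 1 chick, with adjusted p up to 0.177.

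The other 2 genes called in males were not called in females. ACKR4, a scavenging receptor of homeostatic chemokines, stood at 6.24, 8.94, 7.93, 7.97 and 7.20 in CpG males, against 5.13 to 5.72 (median 5.45) in male controls. In CpG females it stood at 6.77, 7.86, 5.75, 6.76 and 7.55, against 4.91 to 6.92 (median 5.70) in female controls. The groups were apart in males and overlapped in females. ACKR4 rose by 2.22 in males (adjusted p = 0.0437), against 1.05 in females (adjusted p = 0.205), a difference of -1.17 ± 0.58 (adjusted p = 0.470), and without chick 31 the difference was -0.87. FAM174B, a membrane protein, rose by 0.66 in males, against 0.03 in females, and the difference of -0.64 ± 0.17 did not pass the test (adjusted p = 0.379). Both calls in males were lost in 14 of 22 fits.

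Other genes had the larger point estimate in males, and the probe sets given here were called in neither sex. IL15, a growth factor of natural killer and memory T cells, stood at 7.99, 8.77, 5.67, 8.13 and 8.08 in CpG females, against 6.16 to 8.27 (median 6.96) in female controls. In CpG males it stood at 8.19, 9.25, 9.73, 8.15 and 7.46, against 6.01 to 7.27 (median 6.64) in male controls. The low value in CpG females was that of chick 31. The effect was 0.59 in females and 1.93 in males, a difference of -1.34 ± 0.66, and without chick 31 it was 1.1 in females with a difference of -0.83.

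DDX60, an antiviral helicase, had 1.34 in females and 2.86 in males (adjusted p = 0.0641), a difference of -1.52 ± 0.81 that was -1.30 without chick 31. Another probe set of DDX60 was among the 11 called in males. XK, a red cell membrane protein, had 1.37 in females and 2.41 in males, a difference of -1.04 ± 0.69 that was -0.60 without chick 31. BF2, the major MHC class I heavy chain of chickens, had 0.39 in females and 0.98 in males, with all 5 CpG males above all male controls, and its difference of -0.59 ± 0.35 was -0.38 without chick 31. In males DDX60, XK and IL15 passed the test without chick 31 (adjusted p = 0.0344, 0.0166 and 0.0238), and no difference between the sexes did.

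Interferon-stimulated genes, the antiviral effectors and sensors switched on by type I interferon, were the list with the most calls in females. Of 31 measured genes, 13 rose in females (1.06% of all probe sets did) and 0 in males (0.0529% of all), with 0 called in the difference. The median effect was 0.85 in females and 0.52 in males, against -0.0025 and -0.01 over all probe sets. The count in females ranged from 3 to 19 when 1 chick was left out. The median of the differences was 0.30 (0.02 over all probe sets), and it ranged from 0.18 without chick 31 to 0.49 without chick 99. With the 6 cell type scores as covariates it was -0.12, the opposite direction.

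The mean level of the list was 10.1 ± 0.38 in CpG females and 10.2 ± 0.29 in CpG males (SD, n = 5 each), against 9.21 ± 0.42 in female controls and 9.58 ± 0.23 in male controls (SD, n = 6 each). IFI6, an interferon-induced mitochondrial protein, stood at 12.38 to 13.26 in CpG females, against 11.49 to 12.44 in female controls, and at 12.32 to 12.90 in CpG males, against 12.20 to 12.62 in male controls. IFI6 rose by 0.83 in females (adjusted p = 0.0116) against 0.24 in males, a difference of 0.59 ± 0.23 (adjusted p = 0.412). IFIT5, which binds viral RNA, rose by 0.82 in females against 0.30 in males, and the call was lost without chick 31 or 97. Whether the sexes differed among the controls was not tested.

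Of 17 heterophil genes, 2 rose in females (1.06% of all probe sets did) and 0 in males. All 17 had a positive difference (53.2% of all probe sets did), with median effects of 0.79 in females and 0.27 in males. The median difference was 0.35, with 0.15 without chick 26 and 0.24 without chick 31. NCF4, a subunit of the phagocyte oxidase, rose by 0.83 in females (adjusted p = 0.00853) against 0.37 in males, with all 5 CpG chicks above all 6 controls in each sex. ITGB2, the beta chain of leukocyte integrins, rose by 0.96 in females against 0.76 in males. The defensin AvBD7 had 1.59 in females (adjusted p = 0.0865) and 0.46 in males, and its highest level, 9.77, was in chick 26. The alarmin S100A12 had 1.14 in females and 0.90 in males, neither called.

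The heterophil score, a mean z-score of these genes, was 0.17 ± 0.67 in CpG females and -0.26 ± 0.64 in CpG males (SD, n = 5 each), against -0.87 ± 0.15 in female controls and -0.68 ± 0.16 in male controls (SD, n = 6 each). The monocyte score was 0.48 ± 0.36 in CpG females and 0.09 ± 0.42 in CpG males, against -0.59 ± 0.23 in female controls and -0.50 ± 0.20 in male controls. The CpG females thus had the highest mean of both scores, with overlap between the sexes. With 6 such scores as covariates limma called 0 probe sets in either sex, in both together or in the difference, with an unadjusted p under 0.05 for 1307 in females, 1538 in males and 1244 in the difference. Some genes of the scores are themselves among the called genes, and 6 covariates leave fewer residual degrees of freedom. That fit thus cannot say what part these cell types had in the results, and their part was not tested.

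Of 12 monocyte and macrophage genes, 5 rose in females (1.06% of all probe sets did) and 1 in males (0.0529% of all). The medians were 0.56 in females and 0.28 in males. The effect was above 0 for 10 of the 12 in females and 8 of the 12 in males. Beside LY86, SPI1 and CTSS, TREM2, a lipid receptor of macrophages, rose by 0.73 in females against 0.44 in males. Of 26 genes of the TLR pathway, 3 rose in females (1.06% of all probe sets did, and 1 to 5 of the 26 with 1 chick left out) and 0 in males. TLR21 was not among these 26, so the receptor of CpG-ODN itself is not covered. LY96, the co-receptor of TLR4, rose by 1.29 in females against 0.84 in males, and TLR7, a receptor of single-stranded RNA, by 1.01 against 0.82. Their calls were lost in 9 and 14 of 22 fits that left out 1 chick, and LY96 was called in males without chick 31. In CpG females LY96 stood at 9.72 in chick 31, where the others had 7.22 to 7.78. Its rise of 1.29 in females thus leans on that chick. The median difference over the TLR pathway was 0.11, and -0.0016 without chick 31.

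Of 18 genes of MHC and antigen presentation, 2 rose in females (1.06% of all probe sets did) and 1 in males (0.0529% of all), with medians of 0.34 and 0.31. Of 32 cytokine and receptor genes, 2 rose in females (1.06% of all probe sets did) and 0 in males (0.0529% of all). IL18, an inflammatory cytokine of macrophages, rose by 0.84 in females against 0.44 in males, a call lost in 16 of 22 fits that left out 1 chick. IL1B, which encodes the inflammatory cytokine IL-1 beta, had -0.03 in females and -0.41 in males. IL6 and IFNG had 0.02 and 0.19 in females and -0.13 and 0.11 in males. IL1B, IL6 and IFNG were called in neither sex. IFNG stood at 2.62 to 3.25 in female controls and IL6 at 5.20 to 5.36 in male controls. These levels are low, and whether the array detected the 2 genes is not known. Of 25 chemokine and receptor genes, ACKR4 in males was the 1 call in either sex (0.0529% of all probe sets rose in males).

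Among other blood cells, 2 of 16 thrombocyte genes, 1 of 17 B cell genes and 2 of 21 T cell genes rose in females, and 0 of 7 natural killer cell genes did, where 1.06% of all probe sets rose. The B cell call fell to 0 in at least 1 fit that left out a chick. In males none of these lists had a call. SELP, the adhesion molecule P-selectin of thrombocytes, rose by 0.78 in females against 0.24 in males, a difference of 0.54. CD7, a T cell surface protein, rose by 1.02 in females against 0.46 in males, a call lost in 17 of 22 fits that left out 1 chick. No member of the erythroid list was called in either sex (26 genes, medians -0.07 in females and -0.05 in males). Without chick 31 the erythroid median in females was 0.02, the median difference of -0.08 turned to 0.05, and XK was called in males.

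Heat shock proteins and chaperones, which fold proteins, had the largest negative median difference of the 25 lists. None of 28 genes was called in either sex or in the difference, and no member is said here to have changed. The median effect was -0.21 in females and 0.12 in males, with 23 of 28 genes lower in CpG females and 21 of 28 higher in CpG males. Of all probe sets, 49.5% were higher in CpG females and 47.1% in CpG males. The median difference was -0.33, between -0.39 and -0.28 when 1 chick was left out and -0.36 without chick 31. In 8 genes the difference had an unadjusted p under 0.05, all 8 negative, where 6.43% of all probe sets had such a p with a negative difference. Among genes with 1 symbol, 906 of 11527 did.

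PTGES3, the HSP90 co-chaperone p23, stood at 11.13, 10.84, 10.81, 10.89 and 10.93 in CpG females, against 10.96 to 11.34 (median 11.23) in female controls. CpG males had 10.89, 11.17, 11.29, 11.40 and 11.38, against 10.88 to 11.19 (median 10.93) in male controls. The groups overlapped in both sexes, and the difference was -0.52 ± 0.14 (adjusted p = 0.379). DNAJB9, a co-chaperone of the endoplasmic reticulum, had -0.33 in females and 0.29 in males, and HSPA5, the main chaperone there, -0.45 and 0.19. The mean level of the list was 9.21 ± 0.13 in CpG females, 9.43 ± 0.25 in CpG males, 9.45 ± 0.13 in female controls and 9.33 ± 0.16 in male controls. In the male CpG chick 25 it was 9.08, the lowest of the 22.

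Of 18 immediate early genes, which respond to stimuli within minutes, 3 fell in females (0.625% of all probe sets did) and 0 in males (0% of all). Beside SIK1 and NR4A3, EGR1, a zinc finger transcription factor, fell by 0.56 in females against -0.10 in males, and its call was lost in 18 of 22 fits that left out 1 chick. The list as a whole did not follow these 3 genes, with medians of 0.11 in females and 0.02 in males. A positive difference was found for 10 of 18 genes, where 53.2% of all probe sets had one.

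Of 44 mitosis genes, 2 fell in females (0.625% of all probe sets did) and 0 in males (0% of all). The medians were -0.33 in females and -0.55 in males, against -0.0025 and -0.01 over all probe sets. The list as a whole thus had the lower median in males. Its median difference was 0.18, and -0.04 without chick 103. Of 42 DNA replication genes, MCM4 was the 1 call in females, with medians of -0.09 and -0.14. Of 30 genes of oxidative phosphorylation none was called in either sex, with medians of -0.21 in females and -0.01 in males, and the median difference of -0.19 was -0.05 without chick 31. Of 24 glycolysis genes, 3 rose in females (1.06% of all probe sets did) and 0 in males (0.0529% of all), with medians of 0.14 and 0.11. Among the 3 was LDHA (lactate dehydrogenase A), with 0.70 in females and 0.40 in males.

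Of 9 annexins, 3 rose in females (1.06% of all probe sets did) and 0 in males (0.0529% of all). Their median difference was 0.24, with 0.03 without chick 26 and 0.36 without chick 31. Of 20 genes of arginine, polyamine and itaconate metabolism 2 rose in females and 0 in males, beside the same shares over all probe sets. Among these 2 was ACOD1, which makes itaconate in macrophages, with 1.31 in females and 1.07 in males. Without chick 31 ACOD1 was also called in males (adjusted p = 0.0166), and its difference of 0.24 was -0.02. The cholesterol synthesis, fatty acid oxidation and ribosomal protein lists had 0 calls in either sex.

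Genes tied to sex itself were looked at last. Of 17 genes of steroid hormone receptors and response none was called in either sex or in the difference, and the differences lay between -0.22 and 0.30. Of 32 Z-linked genes with immune roles 2 rose in females (1.06% of all probe sets did) and 0 in males (0.0529% of all). Over all 498 Z-linked genes, 7 were called higher and 0 lower in females, 0 in males and 0 in the difference, beside 171 higher and 88 lower of 11527 genes in females. The median difference over Z-linked genes was -0.04, against 0.01 over all genes.

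**Figure D5:**
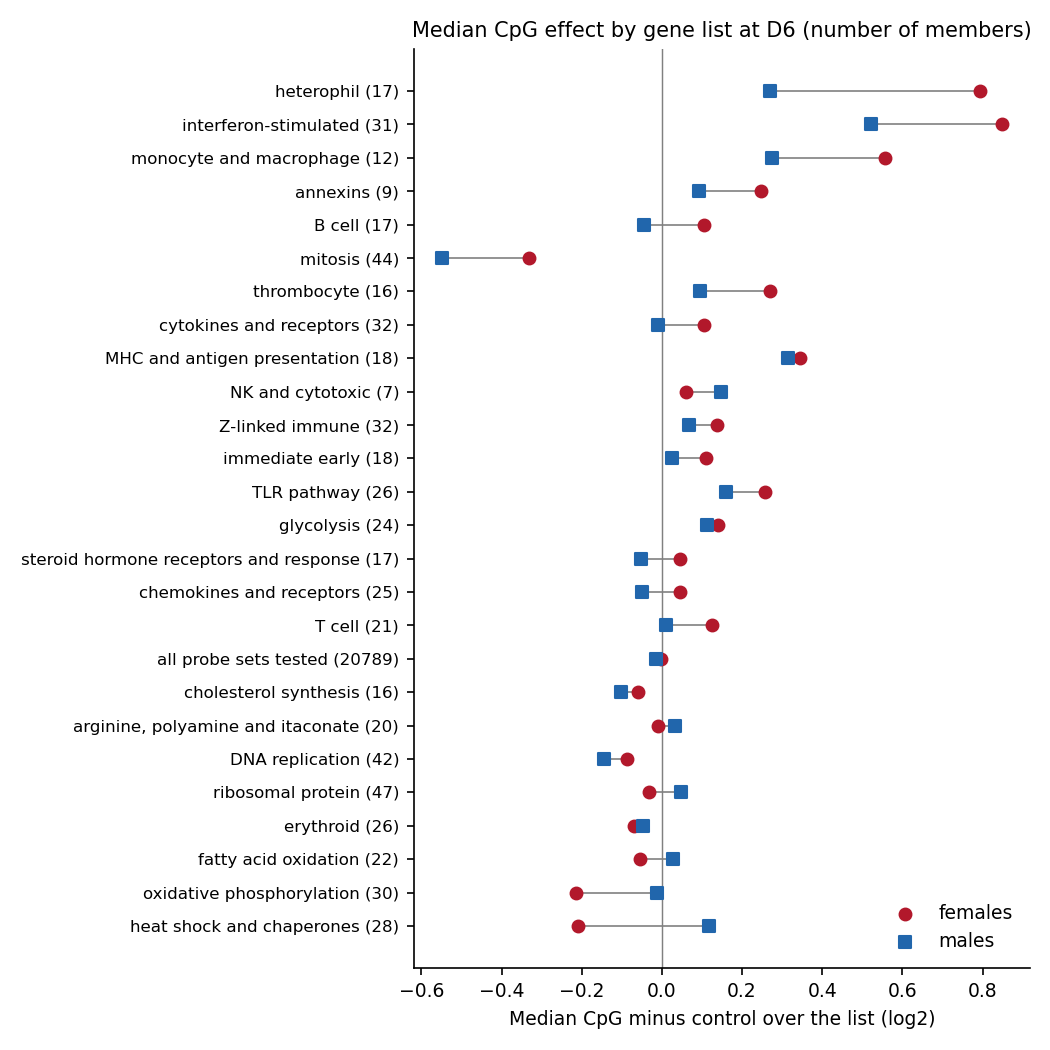
Median CpG effect (horizontal axis, log2) of each gene list in females (red circles) and in males (blue squares), ordered from the largest to the smallest median difference, with the number of measured members in brackets. Heterophil, interferon-stimulated and monocyte lists lie further to the right in females than in males, and heat shock genes lie on opposite sides of 0 in the 2 sexes.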

How the data were processed

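The authors deposited log2 values for 58 arrays and 20804 probe sets, made with RMA per the submitters' processing notes, a method of background correction, quantile normalization and probe summary. The version of RMA is not given in the sources used here, signal over background is not known, and the number of arrays limits the precision. The values were used as deposited. Array medians at D6 lay between 6.64 and 6.76. The platform table gave 1 gene symbol for 12300 probe sets, several for 256 and none for 8248, and symbols of 11727 probe sets were checked against the gene table of assembly GRCg7b. For a gene with several probe sets, the one with the highest mean stood for the gene. Some probe sets (1644) had the same values on every array as another one.

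With limma 3.58.1 in R 4.3.3, 1 mean for each of the 4 combinations of treatment and sex was fitted to the 22 D6 arrays (18 residual and 4.01 prior degrees of freedom). P-values were two-sided and adjusted by Benjamini-Hochberg over 20789 probe sets, with a threshold of 0.05. SE is limma's moderated standard error, and intervals are 95%. Nothing in the labels says how chicks were housed or processed, so the p-values measure the spread between these chicks.

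The comparison, the 25 gene lists and the panel of immune genes were chosen with earlier results of these data known. Genes named are the 10 in each direction with the smallest p of the sex difference (none was called), the 10 largest called rises and falls in each sex, up to 3 genes of each list by the same p and the panel. A list is described by its counts and medians without a test. Lists hold 1 probe set per gene, whereas the shares beside them are over all probe sets. Of 11527 genes with 1 symbol, 171 were called higher and 88 lower in females, and 7 higher in males. The difference was positive for 5845 of the 11527. Alternatives were the fit of all 58 arrays, a prior with trend and robust estimation, weights for arrays, a filter of the 40% lowest probe sets, median centring, a second quantile normalization, only 1 probe set per gene, no rows that may be control probes, no chick 31, sex from W-linked probe sets, 6 cell type scores and each chick left out. A fit without the 3 chicks of intermediate HINTW (28, 31 and 100) was added after the data were seen.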

Additional observations from a re-analysis of the deposited data

Results flagged for a closer look

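In each of the 4 groups, the gap between the most extreme chick and its nearest neighbour was divided by the range of the group and set against Dixon's critical value, for the named genes, HINTW and 6 cell type scores. Of 316 groups, 30 went past it, where chance gives about 1 in 20 groups, or 15.8, and chick 31 gave 5 of the 30. No explanation was tested.

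HINTW was low in chick 31 among CpG females (10.8, ratio 0.833), high in chick 28 among CpG males (7.96, ratio 0.763) and high in chick 100 among male controls (8.54, ratio 0.758). The erythroid score was low in chick 31 (-0.86, ratio 0.868). Among female controls the heterophil score was high in chick 105 (-0.58, ratio 0.716) and the thrombocyte score low in chick 106 (-1.42, ratio 0.830).

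Among genes in CpG females, chick 31 was high for LY96 (9.72, ratio 0.775) and low for IL15 (5.67, ratio 0.750) and ARSA (6.30, ratio 0.757). Chick 35 was high for ATG4C (6.89, ratio 0.725) and low for TREM2 (6.83, ratio 0.791), and chick 29 was low for NRROS (7.60, ratio 0.731).

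In CpG males, chick 32 was high for FBXL21 (7.42, ratio 0.798) and low for IFIT5 (12.70, ratio 0.797). Chick 25 was high for MIR1647 (6.48, ratio 0.788) and low for LY75 (10.29, ratio 0.716), and chick 33 was low for FAM174B (7.39, ratio 0.774).

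In female controls, chick 99 was high for IFI6 (12.44, ratio 0.658) and EGR1 (9.89, ratio 0.633). Chick 98 was low for MRPL37 (9.00, ratio 0.735) and SPIA9 (3.22, ratio 0.780), chick 105 was low for PTGES3 (10.96, ratio 0.702) and chick 106 was low for IFNG (2.62, ratio 0.726).

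In male controls, chick 102 was high for RBM43 (8.10, ratio 0.628), DDX60 (7.00, ratio 0.649) and IL6 (5.36, ratio 0.905). Chick 108 was high for LOC768380 (4.46, ratio 0.694) and GRXCR1 (5.92, ratio 0.645). Chick 100 was high for MIR7-3 (6.29, ratio 0.668), and chick 107 was low for EGR1 (8.84, ratio 0.666).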

How the results depend on the processing

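The sex difference had 0 calls in each alternative but 1 and in 20 of 22 fits that left out 1 chick (0 to 3 calls, with smallest adjusted p from 0.0129 to 0.192). The exception was the fit with 1 probe set per gene, with 2 calls at an adjusted p of 0.0489, FBXL21 and LOC768380. Other fits with fewer probe sets had 0 calls. Their smallest adjusted p was 0.0508 without the 40% lowest probe sets and 0.0943 without rows that may be control probes. Without the chicks of intermediate HINTW the smallest adjusted p was 0.282. The cause of the 2 calls was not tested.

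In females the 350 calls were 175 with all 58 arrays in the fit and 0 with the 6 cell type scores, and 144 to 433 with 1 chick left out. In the other alternatives they were at least 275 and within 1.5 times of 350.

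In males the 11 calls were 20 with all 58 arrays, 20 with the trended and robust prior, 25 with array weights, 61 without the 40% lowest probe sets, 0 with repeated quantile normalization and 43 with median centring. They were 48 with 1 probe set per gene, 36 without rows that may be control probes, 73 without chick 31, 0 with the 6 cell type scores and 0 without the chicks of intermediate HINTW, and 0 to 73 with 1 chick left out. The cause of these shifts was not tested.

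Over both sexes together the 614 calls were 0 with the 6 cell type scores and 471 to 862 with 1 chick left out. Sex from W-linked probe sets was the same in all 22 chicks, so that fit repeats the main one and its counts could not differ. With the 6 cell type scores the effects in females of ANXA1 (-0.0704), SPI1 (-0.0117), SELP (-0.0125), TREM2 (-0.413), TLR7 (-0.0659), ITGB2 (-0.316) and LDHA (-0.207) turned negative, and none was called.

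No paired analysis was possible because chick numbers are not shared between the groups. With 5 or 6 chicks in each group, the median SE of the sex difference was 0.20.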
